A study of Mus musculus with 6 samples.

Results

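The cells described here are synovial fibroblasts of the mouse knee that carry transcripts of Ccl11, Cxcl13, Dpep1 or Smoc2, called Ccl11/Smoc2 fibroblasts below. A cell barcode was taken as a fibroblast when mitochondrial genes gave at most 10% of its UMIs (unique molecular identifiers, each standing for 1 captured transcript), Col1a2 and Dcn together gave at least 5 UMIs, Ptprc and Pecam1 gave 0, and Tyrobp gave at most 1. Such a fibroblast was a member when Ccl11, Cxcl13, Dpep1 and Smoc2 together gave at least 4 UMIs, Myoc, Dkk2 and Penk together at most 2, and Saa3, Cxcl5 and Hp together at most 4. This held for 1276 of 11148 fibroblasts (11.4%), out of 18491 barcodes in all. The other 9872 fibroblasts serve as the reference population. All 15 genes of this rule therefore describe the members and are given with no test, although counts over all genes include them.

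The study dissociated knee synovium, sorted live cells and ran them through droplet-based 3' sequencing, with the tissue of 10 mice pooled for each of 6 libraries and 1 library for each group. Wild-type and Notch3 knockout (Notch3-/-) mice were each sampled healthy and arthritic, and 2 further arthritic groups had received an isotype control antibody or an anti-Notch3 monoclonal antibody. Arthritis was induced by transfer of serum from K/BxN mice, a model in which autoantibodies drive joint inflammation without the recipient's own adaptive response. The labels give no age, sex or strain and no antibody dose or schedule, the genotype of the antibody-treated mice is not stated, and the knockout is not described as restricted to a cell type. Values for the 6 libraries are listed below with the healthy pair first (wild type, then knockout), followed by the arthritic pair of genotypes (wild type, then knockout) and the antibody pair (isotype, then anti-Notch3).

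Synovium has a lining, a thin layer of Prg4-expressing fibroblasts and macrophages at the joint space, and a sublining of vessels and connective tissue with several kinds of Thy1-expressing fibroblasts. Notch3 is a receptor best known from mural cells, the pericytes and smooth muscle of vessel walls, and is activated there by ligands on endothelial cells. Ccl11 encodes eotaxin, a chemokine that attracts eosinophils through Ccr3, and Cxcl13 encodes the chemokine that draws B cells into follicles through Cxcr5. Dpep1 encodes a membrane dipeptidase that converts leukotriene D4 to leukotriene E4. Smoc2 encodes a secreted calcium-binding matrix protein of the SPARC family, and Fst encodes follistatin, which binds and blocks activins.

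Each library gave between 11636998 and 24535233 UMIs in all. The members numbered 292, 353, 80, 307, 154 and 90, and their median depth was between 3846 UMIs (healthy knockout) and 7227 UMIs (isotype) per cell. Any pair of libraries shared 5 to 29 barcodes, at most 0.974% of the smaller library, and 1 barcode was a member in both libraries of a pair. Scrublet, a doublet caller, marked 219 barcodes (1.21%), 7 of them members. In the members, markers of blood and vessel-lining cells were low. The fibroblast rule itself excludes Ptprc and Pecam1 and limits Tyrobp, so these levels are partly set by it. The 5 myeloid markers summed to 22.3 to 68.4 CPM (UMIs of a gene per 1000000 UMIs of the summed cells). The 4 lymphoid markers summed to at most 2.3 CPM, the 4 neutrophil markers to at most 19.8 CPM and the 3 erythroid markers to at most 16.8 CPM. The 5 endothelial markers summed to 23.2, 16.1, 23.5, 6.1, 3.6 and 6.1 CPM in members. In other fibroblasts they summed to 5.2, 6.6, 6.2, 7.8, 5.8 and 12.7 CPM. They were thus higher in members in both healthy libraries and the arthritic wild type, and lower in the remaining libraries. With 1 library a group, no value below has a spread between animals, and intervals cover counting error only.

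The isotype library stands apart in which cells met the rule. Of its 154 members, 100 had Smoc2 alone among the 4 marker genes, against 6 to 13 members in each of the other 5 libraries. The 4 tendon-like markers Chad, Angptl7, Fmod and Tnmd summed to 881.7 CPM in the isotype members, against 45.6 to 190.0 CPM in the members of the other libraries. Fmod, a tendon and cartilage proteoglycan, was at 0, 14, 11.7, 0.762, 551 and 0 CPM. Acan, the main cartilage proteoglycan, was at 146 CPM in the isotype members. The arthritic wild-type members carried 230 CPM of the 5 mural markers Rgs5, Kcnj8, Abcc9, Myh11 and Notch3, against 4.6 to 26.0 CPM elsewhere. Results on the members are therefore also given for the 1001 members with UMIs of at least 2 of the 4 marker genes, a definition added after these values were seen. It left 245, 295, 63, 275, 49 and 74 cells, a tendon-like sum of 245.6 CPM in the isotype library and a mural sum of 9.0 CPM in the arthritic wild-type library.

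Among the marker genes, Ccl11, Cxcl13 and Dpep1 were lowest in the isotype members as a whole, and Smoc2 was highest there. Ccl11 (mm10 chr11:82057823-82062955, plus strand) was at 728, 1165, 600.4, 1525, 82.8 and 749 CPM, so the arthritic knockout stood highest and the isotype library lowest. A Ccl11 UMI was found in 65.8%, 83.6%, 65.0%, 87.3%, 20.8% and 71.1% of members, while at most 0.72% of myeloid cells, whose median depth was 3584 to 7245 UMIs, held one in any library. Dpep1 (chr8:123186242-123201812, plus strand) was at 479.9, 535, 446, 579.8, 92.7 and 416 CPM, and only the isotype level lies well below the others. Cxcl13 (chr5:95956951-95961068, plus strand) was at 434, 216, 101, 152, 44.1 and 292 CPM, highest in the healthy wild type and lowest with isotype. Smoc2 (chr17:14279506-14404790, plus strand) ranged less, at 369, 321, 459.6, 472, 649.6 and 292 CPM. In members with at least 2 marker genes the isotype level of Ccl11 was 349 CPM, still the lowest of the 6, against 832 CPM with anti-Notch3. Dpep1 was then at 539.6, 601, 499, 639.6, 396 and 494 CPM, so that the isotype level, though the lowest, lay much nearer to the rest. Cxcl13 was at 424, 190.2, 129, 156, 168 and 341 CPM, and the arthritic wild type was lowest.

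**Figure D1:**
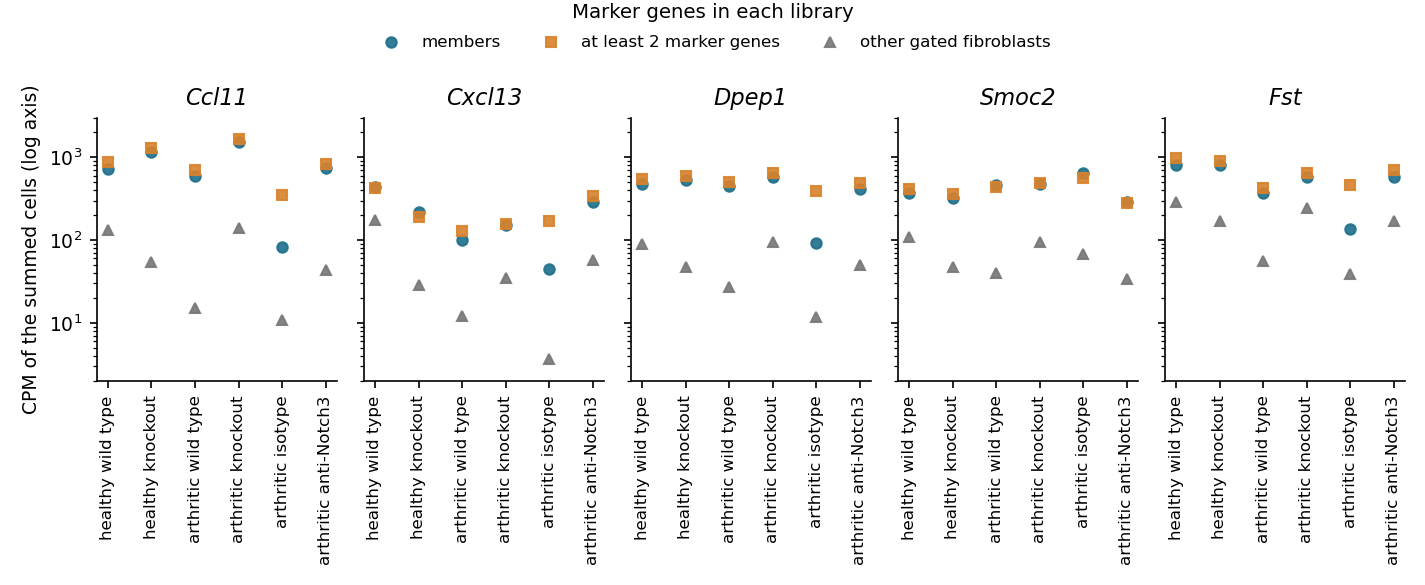
Level of the marker genes Ccl11, Cxcl13, Dpep1, Smoc2 and Fst (y axis, CPM on a log scale) in the 6 libraries (x axis), in members, in members with at least 2 marker genes and in other fibroblasts, drawn without intervals. The isotype members hold the lowest Ccl11, Cxcl13, Dpep1 and Fst and the highest Smoc2.

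The marker genes were not evenly combined in single cells. Ccl11 and Dpep1 were found together in 58.6%, 62.9%, 52.5%, 73.9%, 15.6% and 54.4% of members. Cxcl13 and Smoc2 were found together in 22.3%, 7.37%, 12.5%, 5.21%, 2.60% and 14.4%. These shares come from cells of unequal depth and are not thinned. At the threshold, 202 members had exactly 4 UMIs of the marker genes, and 308 fibroblasts that met the other terms had exactly 3. The median member had 11, 7, 7, 9, 5 and 7 marker UMIs.

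Fst, which the rule does not use, was higher in members than in other fibroblasts in all 6 libraries. It was at 816, 802, 375, 586, 137 and 570 CPM in members and at 289, 172, 55.4, 246, 38.9 and 169 CPM in the others, a ratio of 2.37 to 6.67. With every cell thinned to 2000 UMIs, an Fst UMI was found in 51.7%, 58.4%, 37.7%, 47.8%, 17.3% and 44.3% of members and in 27.8%, 20.6%, 9.28%, 25.8%, 6.40% and 18.7% of other fibroblasts. The share was thus above that of the other fibroblasts in each library, and the isotype members were lowest. In members with at least 2 marker genes Fst was at 987, 903, 427, 652, 465 and 693 CPM, and there the arthritic wild type was lowest and the isotype library next. The Myoc and Dkk2 fibroblasts, which are the other fibroblasts with at least 4 UMIs of Myoc, Dkk2 and Penk, held Fst at 526, 373, 239.9, 439.6, 199 and 443 CPM. Fst was thus higher in members than in these cells in 5 libraries and lower with isotype.

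Of 8243 genes with at least 50 UMIs in members, 582 (7.06%) were higher in members than in other fibroblasts in every library, and 918 (11.1%) were lower in every library. A ratio of at least 2 in every library was reached by 15 genes, and 24 genes were at least 2-fold lower in every library. The 582 and the 15 include Ccl11, Cxcl13, Dpep1 and Smoc2, on which the rule chose the cells. This comparison is a description, since the cells were chosen on their transcripts. After the marker genes the highest smallest ratio belonged to Lpl, lipoprotein lipase, at 701, 556, 474, 449, 87.3 and 351 CPM in members and 196, 77.7, 91.9, 121, 26.6 and 75 CPM in the others. The isotype members had the least Lpl of the 6, and their Lpl was still 1.68 log2 units above that of the other fibroblasts. Against the Myoc and Dkk2 fibroblasts alone, with Lpl at 393, 163, 288, 207, 116 and 180.1 CPM, 6 of the 20 genes with the highest smallest ratio were higher in members in every library. The other 14 were not, 13 of them in the isotype library and 4 in the arthritic wild type. With at least 2 marker genes, 16 of the 20 were higher in every library, and 4 were not in the arthritic wild type. Of these 20 genes, Hpgd, which inactivates prostaglandins, was 2.16- to 3.81-fold higher than in the other fibroblasts as a whole. Hsd11b1, which regenerates active glucocorticoid, was 2.1- to 11-fold higher from low levels of 13.5, 12.6, 23.5, 8.38, 5.4 and 4.06 CPM. Entpd2, an ectoenzyme that degrades extracellular ATP, was 1.89- to 3.51-fold higher.

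Interferon-inducible genes were also in that set. Iigp1, an immunity-related GTPase, was 2.62- to 7.54-fold higher in members and AW112010 2.81- to 5.44-fold. Timp3, an inhibitor of metalloproteinases, was 1.8- to 4.76-fold higher, and Col4a4, a basement membrane collagen chain, 2.29- to 5.53-fold. Nmb, neuromedin B, was 1.96- to 5.19-fold higher. The remaining genes of the set were Nav3, Sult5a1, Gxylt2, Ms4a4d, Ifi205, Prokr1, Pid1, Adam19, Tmem26 and Nrep.

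The 10 genes with the smallest largest ratio were led by lining genes. Clic5 was at 1.39, 48.2, 2.35, 15.2, 2.7 and 24.3 CPM in members against 81, 386, 74.1, 175, 96.5 and 236 CPM in the others. Prg4, lubricin, was at 659, 3283, 889, 947, 811 and 7441 CPM in members and 12190, 24341, 12048, 12714, 13930 and 23742 CPM in the others. One anti-Notch3 member alone gave 96.5% of that library's member Prg4, and without it the level was 258 CPM. Tspan15, Htra4, Bglap2, Col22a1, Inhba, Rgcc, Angptl7 and Hbegf made up the rest. Of the 15 sublining genes listed for this comparison, Thy1, Cd34, Mfap5, Gsn and Pdgfrb were higher in members in all 6 libraries. The rest of that list is not described for this comparison. Thy1 was at 138, 215, 162, 269.7, 127 and 168 CPM in members and 126, 121, 96.2, 128, 115 and 146 CPM in other fibroblasts. The 2 levels lay close in the healthy wild type, isotype and anti-Notch3 libraries. Of 9 lining genes with enough UMIs, 7 were lower in members in all 6 libraries, and Timp3, an inhibitor of matrix metalloproteinases, was higher in all 6. Over all genes 7.06% were higher and 11.1% lower in every library, and both lists were chosen with earlier results known. The label of a sublining fibroblast thus rests on the low lining genes more than on Thy1.

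**Figure D2:**
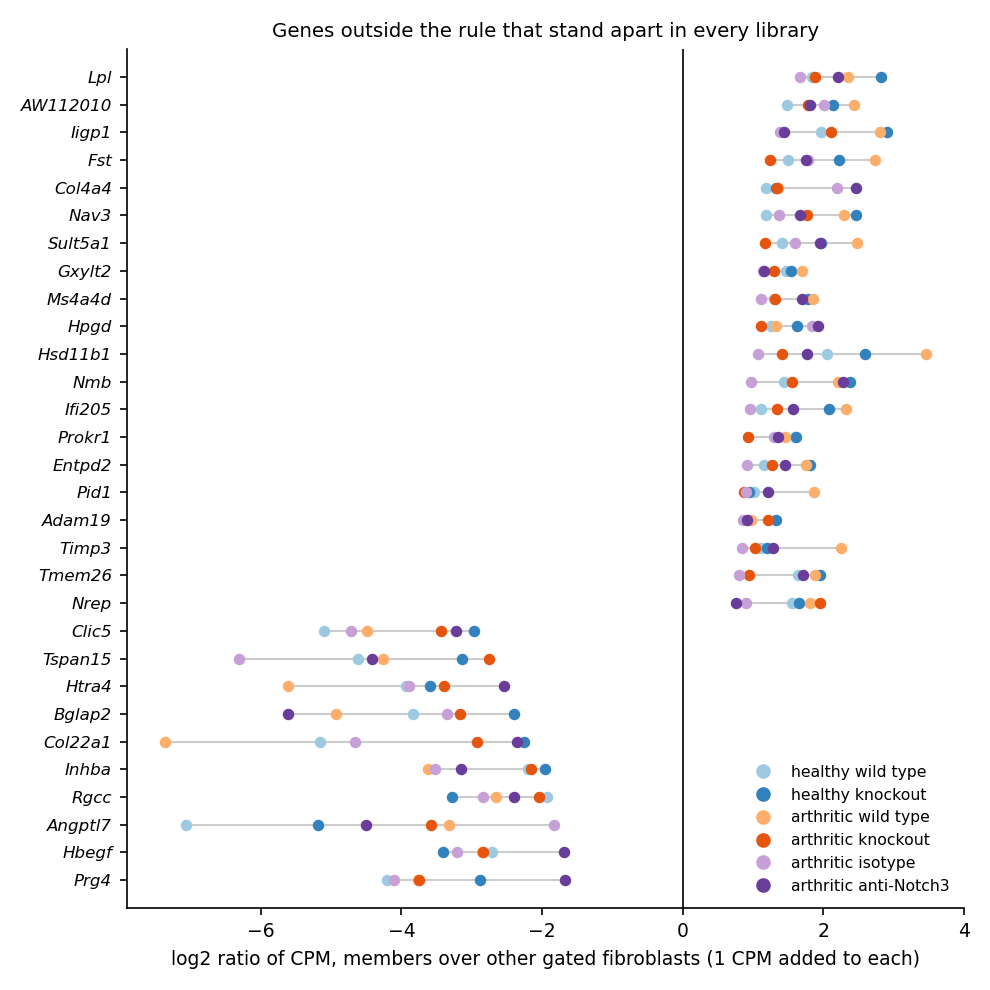
Ratio of the level in members to that in other fibroblasts (x axis, log2) for the 20 genes highest and the 10 genes lowest by the rule above (y axis), 1 point per library. Every point of the upper 20 lies above 0, up to 11-fold for Hsd11b1, and every point of the lower 10 lies below 0.

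The share of fibroblasts that were members moved in opposite directions with Notch3 loss in healthy and arthritic joints. Members made up 16.8% (95% exact interval 15.0 to 18.6) of fibroblasts in the healthy wild type and 9.85% (8.89 to 10.9) in the healthy knockout. They made up 7.77% (6.21 to 9.57) in the arthritic wild type and 18.1% (16.3 to 20.0) in the arthritic knockout, and 7.52% (6.41 to 8.75) with isotype against 8.59% (6.96 to 10.5) with anti-Notch3. The ratio of targeted to untargeted share was 0.587 (0.508 to 0.678) in the healthy pair, 2.33 (1.84 to 2.94) in the arthritic genotype pair and 1.14 (0.890 to 1.47) in the antibody pair. The interval of the antibody ratio includes 1, and the ratio depends on the definition. Where at least 2 marker genes were required, members were 14.1%, 8.23%, 6.12%, 16.2%, 2.39% and 7.06% of fibroblasts, and the antibody ratio was 2.95 (2.07 to 4.20).

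Depth moved with these shares. Members' median UMIs were 6925.5 and 3846 in the healthy pair, 4461 and 4112 with arthritis in the same genotypes, 7227 with isotype and 4767.5 with anti-Notch3, so every targeted library was the shallower of its pair. After thinning to 2000 UMIs per cell the shares were 14.9%, 6.95%, 4.05%, 15.7%, 1.80% and 5.03%, with ratios of 0.465, 3.88 and 2.79 in the 3 pairs, so the directions were those of the unthinned cells. Thinning left out 4, 7, 3, 8, 4 and 2 members as too shallow, of 31, 92, 59, 66, 53 and 40 shallow fibroblasts. Without the Myoc and Saa3 limits, 629, 544, 111, 479, 235 and 158 fibroblasts had at least 4 marker UMIs. The Myoc, Dkk2 and Penk limit was failed by 334, 190, 27, 172, 45 and 66 of them, and the Saa3, Cxcl5 and Hp limit by 5, 1, 5, 0, 40 and 6. Ccl11 is therefore not confined to members, and the other fibroblasts held it at 133, 54.4, 15.2, 140.1, 10.8 and 43.5 CPM. Against the healthy libraries, the arthritic share was 0.463 times as large in wild type (0.366 to 0.586) and 1.84 times in knockout (1.59 to 2.12). These use the same 4 libraries as the genotype ratios and are no further support for them. In a share of captured cells, a change in these fibroblasts and a change in the others cannot be told apart.

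**Figure D3:**
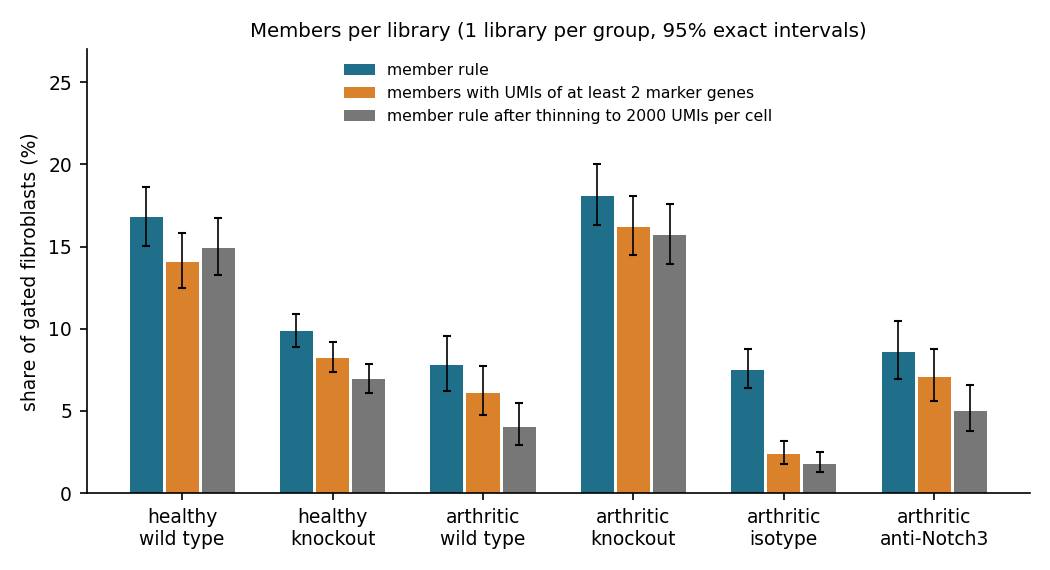
Share of fibroblasts that were members (y axis, percent) in the 6 libraries (x axis) under the rule, with at least 2 marker genes, and after thinning to 2000 UMIs, with exact 95% binomial intervals. The arthritic knockout stands at 18.1% against 7.77% in the arthritic wild type, while the healthy knockout stands below its wild type.

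Notch3 itself (chr17:32120820-32166852, minus strand) was low in members, at 12.6, 1.4, 23.5, 0, 2.7 and 4.06 CPM. These levels rest on 27, 2, 10, 0, 3 and 2 UMIs, and each knockout library held fewer than its wild type. In the arthritic wild type the 5 mural markers, Notch3 included, gave 98 UMIs in members and 3 with at least 2 marker genes. At most 3 of its 10 Notch3 UMIs therefore lie in the stricter members. The antibody binds the protein, so its transcript is no check of that treatment. Of the Notch list, the 6 members with enough counts included the targets Hes1 and Heyl, and none passed a test of Notch3 targeting. Hes1 was at 124, 106, 220.4, 200.4, 98.1 and 136 CPM and Heyl at 9.76, 20.9, 4.69, 8.38, 1.8 and 2.03 CPM, both higher in members than in other fibroblasts in every library. For Heyl this rests on very few UMIs in the arthritic wild type, isotype and anti-Notch3 libraries, with 1 UMI in the last.

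Whether Notch3 loss and Notch3 antibody had a common effect on the members of arthritic joints was tested by summing each library's member UMIs and fitting all genes with edgeR's quasi-likelihood test, with a term for each pair of libraries. The repeat here is the knockout pair and the antibody pair, which leaves 1 residual degree of freedom. The SE printed with an edgeR change is the absolute log2 change divided by the square root of the test's F statistic. It carries the dispersion of the fit, which is estimated with help from all genes, and is no spread between animals. Of 9337 genes, 203 (2.17%) passed an adjusted p (Benjamini-Hochberg) of 0.05, of which 78 (0.835%) were higher and 125 (1.34%) lower in the targeted libraries. The 203 include 4 genes of the rule, whose levels the choice of cells affects, and 199 others. Among members with at least 2 marker genes, 253 of 8001 genes (3.16%) passed, 104 (1.3%) higher and 149 (1.86%) lower. Rule genes were not taken out of these counts either. Outside the rule, 136 genes passed in the same direction under both definitions. The count moved widely with the choice of cells. It was 124 without the 7 Scrublet doublets, 30 with at least 6 marker UMIs and 322 with at least 3. The genes named below passed under both definitions unless stated, and a log2 change is targeted over untargeted. The gene lists below were chosen with earlier results of these data known, so counts within them are descriptions. They stand beside the 0.835% higher and 1.34% lower over all genes, rule genes included.

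Cxcl1, a chemokine that attracts neutrophils, rose in the targeted arthritic libraries, and Nfkbia, Icam1, Irf1 and Csf1 rose with it. Cxcl1 was at 3436 CPM in wild type against 8426 in knockout, and 722 with isotype against 3792 with anti-Notch3. The targeted library was higher in both pairs, and the healthy knockout (6567 CPM) was likewise above its wild type (2733 CPM). The change in Cxcl1 was 1.90 ± 0.30 (SE; adjusted p = 0.000933) by edgeR, and in members with at least 2 marker genes its levels were 3476 against 8980.3 CPM and 1775 against 3997 CPM in the same pairs. Cxcl2, another ligand of the neutrophil receptor Cxcr2, was at 18.8 CPM in wild type against 80 in knockout, and 27 with isotype against 95.3 with anti-Notch3, a change of 1.99 ± 0.35 (SE; adjusted p = 0.00257). The Cxcl2 call rests on few cells, since 1 cell gave 74.3% of the knockout's Cxcl2 UMIs and 1 cell 66% of the anti-Notch3 library's. Without the cell richest in Cxcl2 in each library, its levels were 14.1 against 20.6 CPM and 19.8 against 32.5 CPM, while the richest cell gave at most 12.8% of Cxcl1 in any library. Of the 12 chemokines tested outside the rule genes, these 2 rose and none fell, with a median log2 change of 0.32 against -0.0016 over all genes. Under the stricter definition Cxcl10 also rose, and Cxcl12 and Cxcl14 fell. Ccl2, which attracts monocytes, was at 72.7 CPM in wild type against 331 in knockout, and 98.1 with isotype against 142 with anti-Notch3, and Ccl7 at 997 CPM in wild type against 1186 in knockout, and 254 with isotype against 958 with anti-Notch3. Neither passed (edgeR adjusted p = 0.0512 and 0.125).

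Nfkbia, the NF-kB inhibitor that NF-kB itself induces, was at 516 CPM in wild type against 1037 in knockout, and 317 with isotype against 913 with anti-Notch3. The untargeted libraries were the lower of each pair, with a change of 1.33 ± 0.30 (SE; adjusted p = 0.0191). It was the only 1 of 9 listed NF-kB targets to pass, although the median log2 change of the 9 was 1.02. Nfkbiz and Tnfaip6 passed as well where at least 2 marker genes were required, and the Nfkbia change was 0.998 there. Il6 was at 129, 867, 269.7, 242, 56.7 and 304 CPM, without a common direction in the arthritic pairs, and did not pass (edgeR adjusted p = 0.299).

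The sequences before the start sites of the 3 called genes are shown because all hold a match to the NF-kB consensus, in capitals, searched on both strands (RefSeq, GRCm38.p6, the 250 bases before each start site, 5' to 3' on the gene's strand). Cxcl1 is at chr5:90890995-90891244 (plus strand), Cxcl2 at chr5:90903649-90903898 (plus strand) and Nfkbia at chr12:55492648-55492897 (minus strand). In Cxcl1 and Cxcl2 the capitals are 2 overlapping matches, 1 on each strand, and the letters are the same in both genes.
Cxcl1: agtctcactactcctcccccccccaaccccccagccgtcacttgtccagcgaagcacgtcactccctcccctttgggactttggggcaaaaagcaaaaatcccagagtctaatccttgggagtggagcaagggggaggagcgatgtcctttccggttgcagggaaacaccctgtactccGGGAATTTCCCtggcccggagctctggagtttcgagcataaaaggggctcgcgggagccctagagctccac
Cxcl2: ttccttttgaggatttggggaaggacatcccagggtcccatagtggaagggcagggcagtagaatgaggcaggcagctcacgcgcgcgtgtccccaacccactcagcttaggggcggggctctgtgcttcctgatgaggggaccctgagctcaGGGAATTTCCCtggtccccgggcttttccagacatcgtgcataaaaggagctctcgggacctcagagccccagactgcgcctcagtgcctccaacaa
Nfkbia: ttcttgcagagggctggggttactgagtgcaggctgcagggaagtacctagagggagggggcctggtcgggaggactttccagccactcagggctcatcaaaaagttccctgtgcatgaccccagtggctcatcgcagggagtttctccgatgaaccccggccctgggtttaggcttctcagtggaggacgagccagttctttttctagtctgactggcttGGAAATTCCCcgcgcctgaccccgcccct
A match was present in 4.51% of 32851 RefSeq windows of 300 bases (250 before to 50 after a start site). Among listed genes with a window, a match in any window was present in 3 of 10 chemokines, 3 of 7 NF-kB targets, 0 of 11 collagen and matrix genes and 0 of 6 matrix-degrading genes. Besides the 3 genes shown, these were Cxcl10, Tnfaip3 and Il6, which were not called over all members. The genes shown were picked for their match and the lists with earlier results known. Whether matches go with the changes was therefore not tested. These are matches of letters, not measured binding.

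Icam1, an adhesion molecule for leukocytes, was at 263 CPM in wild type against 499 in knockout, and 78.3 with isotype against 296 with anti-Notch3. Its change was 1.47 ± 0.33 (SE; adjusted p = 0.0199), and the healthy pair moved the other way, from 322 to 267 CPM. Irf1, an interferon-regulated transcription factor, was at 265 CPM in wild type against 394 in knockout, and 30.6 with isotype against 254 with anti-Notch3, a change of 1.77 ± 0.44 (SE; adjusted p = 0.0388). Csf1, the macrophage growth factor, was at 53.9 CPM in wild type against 104 in knockout, and 31.5 with isotype against 154 with anti-Notch3, and the change was 1.71 ± 0.36 (SE; adjusted p = 0.0119). Of 13 listed interferon-response genes tested none rose, and Bst2 and Ifit3 fell. Bst2 was at 342 CPM in wild type against 61.7 in knockout, and 203 with isotype against 108 with anti-Notch3, a change of -1.65 ± 0.36 (SE; adjusted p = 0.0149). The changes were smaller with at least 2 marker genes, at 0.95 for Icam1, 1.03 for Irf1, 1.13 for Csf1 and -1.42 for Bst2.

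Of 15 listed sublining genes, 3 rose and 1 fell, against 0.835% and 1.34% over all genes. Gsn, gelsolin, was at 19150 CPM in wild type against 38825 in knockout, and 4294 with isotype against 25763 with anti-Notch3, a change of 1.86 ± 0.31 (SE; adjusted p = 0.00153). Cd34, a surface marker of adventitial fibroblasts, was at 488 CPM in wild type against 947 in knockout, and 240.2 with isotype against 781 with anti-Notch3, with a change of 1.39 ± 0.31 (SE; adjusted p = 0.0178). Ly6c1, a surface protein of sublining fibroblasts and vessels, was at 882 CPM in wild type against 1454 in knockout, and 432 with isotype against 1601 with anti-Notch3, a change of 1.37 ± 0.32 (SE; adjusted p = 0.024). Col14a1, a fibril-associated collagen, fell from 671 to 194 CPM in the genotype pair and from 862 to 381 CPM in the antibody pair. Hpgd, which stood high in members, rose too, at 14.1 CPM in wild type against 60.2 in knockout, and 18.9 with isotype against 85.2 with anti-Notch3, a change of 2.20 ± 0.38 (SE; adjusted p = 0.00192). F3, tissue factor, was at 51.6 CPM in wild type against 137 in knockout, and 8.1 with isotype against 108 with anti-Notch3, a change of 2.44 ± 0.43 (SE; adjusted p = 0.00249). These rises were smaller with at least 2 marker genes, at 1.05 for Gsn, 0.85 for Cd34, 1.02 for Ly6c1, 1.79 for Hpgd and 1.62 for F3. The Col14a1 change was -1.42 over all members and -1.49 there.

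Fst, the marker outside the rule, was at 375 CPM in wild type against 586 in knockout, and 137 with isotype against 570 with anti-Notch3. The change was 1.40 ± 0.35 (SE; adjusted p = 0.0367) over all members and 0.65 ± 0.23 (SE; adjusted p = 0.112) with at least 2 marker genes, so its call was lost there. Of 23 tested genes of the activin, BMP and TGF-beta list, Fst, Bmp2 and Acvr2a rose and none fell, and with at least 2 marker genes only Id3 rose. Lpl, the leading member gene, was at 474 CPM in wild type against 449 in knockout, and 87.3 with isotype against 351 with anti-Notch3 and did not pass (edgeR adjusted p = 0.327).

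Genes of the fibrillar matrix fell in the targeted arthritic libraries. Of 17 collagen and matrix genes tested, 8 fell and none rose, with a median log2 change of -0.98 against -0.0016 over all genes, and 9 of 16 fell with at least 2 marker genes. Col1a1, a chain of type I collagen, was at 9406 CPM in wild type against 3481 in knockout, and 13121 with isotype against 4148 with anti-Notch3. The 2 untargeted arthritic libraries were the highest of the 6, and the targeted ones were below both healthy libraries, at 4885 and 4225 CPM. Its change was -1.49 ± 0.26 (SE; adjusted p = 0.00201). Postn, periostin, was at 1402 CPM in wild type against 138 in knockout, and 1776 with isotype against 958 with anti-Notch3, a change of -2.04 ± 0.44 (SE; adjusted p = 0.0145). The anti-Notch3 library kept a Postn level above both healthy libraries, whereas the arthritic knockout did not.

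Cthrc1, a secreted protein of matrix-producing fibroblasts, was at 382 CPM in wild type against 6.86 in knockout, and 1885 with isotype against 418 with anti-Notch3, a change of -3.51 ± 0.55 (SE; adjusted p = 0.000879). Healthy members had 26.5 and 14 CPM of Cthrc1. Mfap4, a microfibril-associated glycoprotein, was at 471 CPM in wild type against 22.1 in knockout, and 866 with isotype against 252 with anti-Notch3, a change of -2.92 ± 0.47 (SE; adjusted p = 0.00104). Lox, which crosslinks collagen, was at 244 CPM in wild type against 47.2 in knockout, and 321 with isotype against 122 with anti-Notch3, a change of -1.81 ± 0.33 (SE; adjusted p = 0.00348). Col12a1 fell by 2.80 on the log2 scale, and Tnc and Col8a1 also fell over all members. Cthrc1 and Mfap4 had the same order of levels over the 6 libraries in other fibroblasts, where Cthrc1 was at 92.6, 47.9, 280.4, 24.4, 1112 and 401 CPM.

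Of 11 listed genes of matrix degradation and bone resorption, 4 fell and none rose, with a median log2 change of -1.11 against -0.0016 over all genes, of which 1.34% fell. Mmp3, stromelysin, was at 269.7 CPM in wild type against 71.6 in knockout, and 857 with isotype against 79.1 with anti-Notch3, a change of -2.60 ± 0.37 (SE; adjusted p = 0.000378), and was also lower in the healthy knockout (51 CPM) than in the healthy wild type (196 CPM). Mmp2, a gelatinase, was at 1198 CPM in wild type against 544 in knockout, and 2556 with isotype against 712 with anti-Notch3, a change of -1.43 ± 0.30 (SE; adjusted p = 0.0106). Mmp13, a collagenase, was at 176 CPM in wild type against 0 in knockout, and 283 with isotype against 22.3 with anti-Notch3. The arthritic knockout held 0 Mmp13 UMIs, and against a floor of 3 UMIs in that library the level was at least 76.9-fold lower than in the wild type, where 1 cell gave 54.7% of the UMIs. Acp5 fell over all members alone. Under the stricter definition Mmp14 fell in its place.

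**Figure D4:**
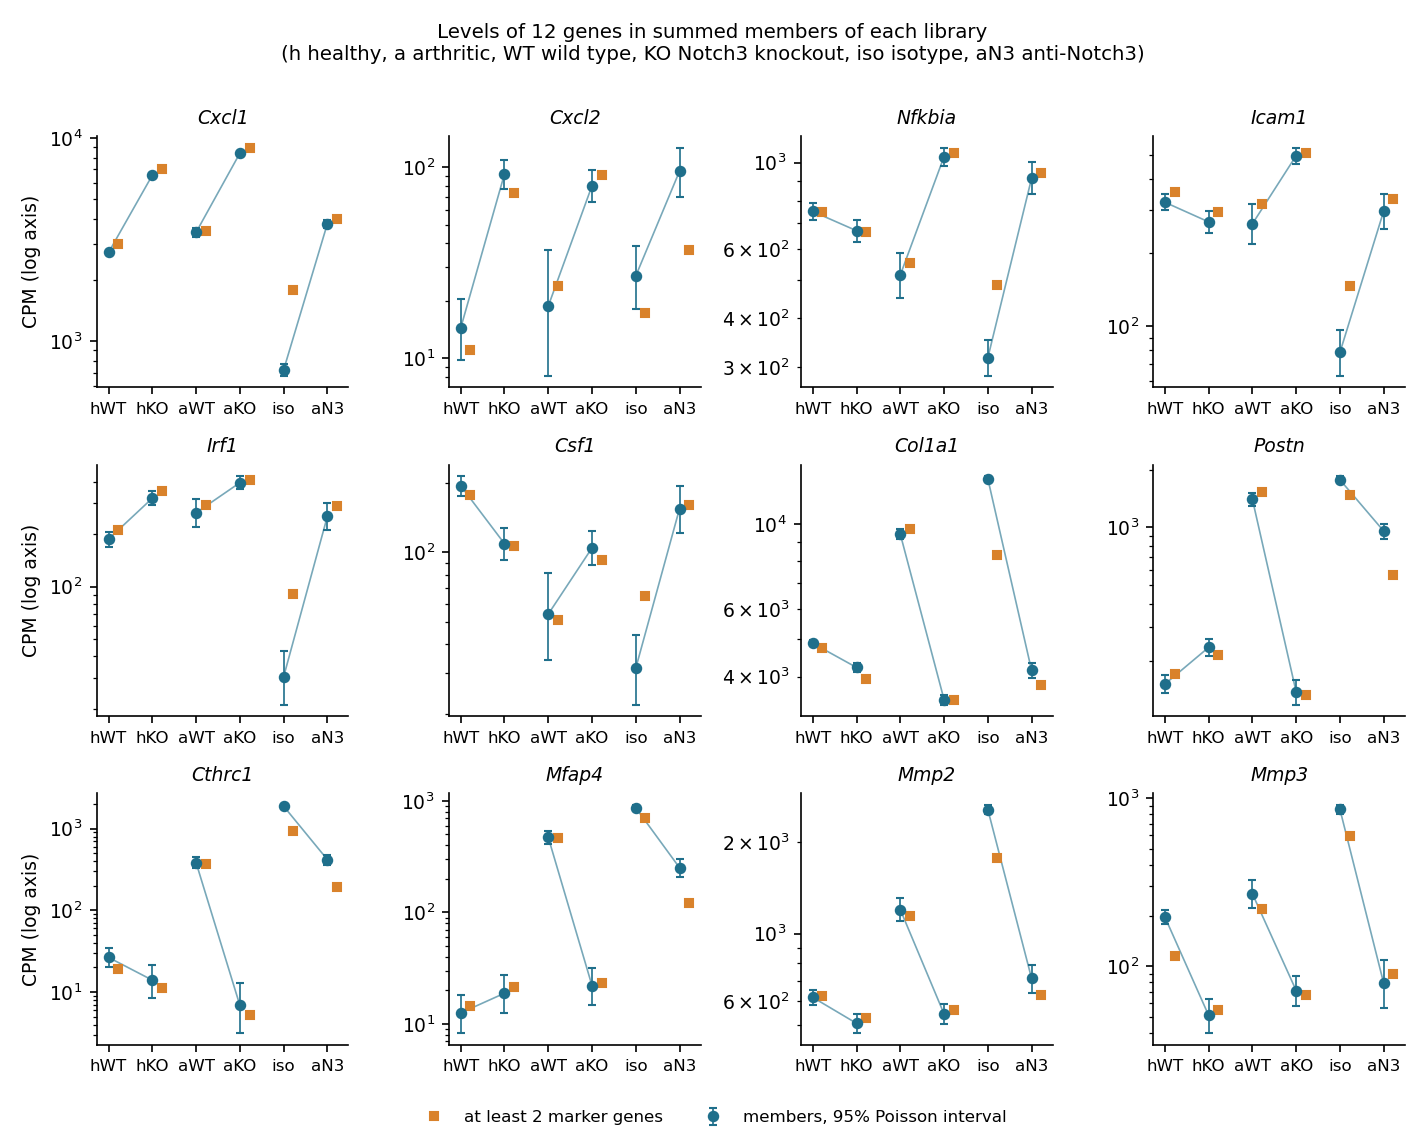
Levels (y axis, CPM, log scale) of 12 genes in the members of the 6 libraries (x axis), with 95% Poisson intervals. Cxcl1, Cxcl2, Nfkbia, Icam1, Irf1 and Csf1 are higher, and Col1a1, Postn, Cthrc1, Mfap4, Mmp2 and Mmp3 lower, in the arthritic knockout and anti-Notch3 libraries than in their partners.

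Of 7 secreted Wnt modulators tested 4 fell, and of 6 insulin-like growth factor genes 2 fell, with none that rose in either list. Over all genes 1.34% fell, and both lists were chosen with earlier results of these data known. Sfrp2 was at 495 CPM in wild type against 11.4 in knockout, and 331 with isotype against 148 with anti-Notch3, a change of -2.97 ± 0.63 (SE; adjusted p = 0.0132). Dkk3 was at 82.1 CPM in wild type against 7.62 in knockout, and 309 with isotype against 58.8 with anti-Notch3, a change of -2.71 ± 0.35 (SE; adjusted p = 0.00014), and Sfrp1 was at 108 CPM in wild type against 32 in knockout, and 85.5 with isotype against 30.4 with anti-Notch3, a change of -1.58 ± 0.33 (SE; adjusted p = 0.0119). The other gene to fall, Wif1, did so over all members alone. Igf1, the growth factor, was at 1076 CPM in wild type against 344 in knockout, and 1581 with isotype against 696 with anti-Notch3, with a change of -1.35 ± 0.29 (SE; adjusted p = 0.0152), and Igfbp3 fell too. Ptn, pleiotrophin, was at 774 CPM in wild type against 13 in knockout, and 788 with isotype against 156 with anti-Notch3, a change of -3.85 ± 0.57 (SE; adjusted p = 0.000522), the arthritic knockout lying next to the healthy wild type at 13 CPM.

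Markers of other fibroblasts moved with these results. The tendon-like sum was 190.0 against 166.1 CPM in the arthritic genotype pair and 881.7 against 125.8 CPM in the antibody pair, and 81.2 against 107.6 and 245.6 against 28.9 CPM with at least 2 marker genes. The 4 cartilage markers Col2a1, Acan, Col9a1 and Cnmd summed to 117.3 against 7.6 CPM and 204.2 against 2.0 CPM, and to 27.1 against 0 and 17.2 against 0 CPM with at least 2 marker genes. The 3 inflammatory markers Saa3, Cxcl5 and Hp, which the rule limits, were at 68.0 against 7.6 and 88.2 against 28.4 CPM. The 5 lining markers Clic5, Tspan15, Hbegf, Col22a1 and Rab37 were at 84.4 against 182.9 and 59.4 against 304.3 CPM. Lining genes were among the risers, with Clic5, Tspan15, Hbegf, Timp3 and Htra4 of 10 tested. With at least 2 marker genes Clic5 and Tspan15 were not called (edgeR adjusted p = 0.0933 and 0.101). Without each library's richest cell, Clic5 was at 1.8 CPM with isotype and 2.03 with anti-Notch3. Hbegf was then at 44.1 and 20.3 CPM and Htra4 at 36.9 and 12.2 CPM, while Timp3 stayed higher with anti-Notch3. In the genotype pair Clic5, Hbegf, Htra4 and Timp3 stayed higher in the knockout. The part of cells or RNA from other populations in these results was not tested. Of the 136 genes called under both definitions, 134 moved in the direction of the fit in both arthritic pairs, and 130 still did so when each gene's richest cell was left out of each library. Among the 136, 9 had more than 25% of the UMIs of their higher side in 1 cell, namely Chil1, Apoc1, Saa1, Lcn2, Htra4, Hbegf, Cxcl2, F13a1 and Cfd.

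Taking the pairs apart, 3267 genes had at least 50 UMIs in each arthritic pair. Of these, 30 were past 2-fold higher in the targeted library of both pairs, 55 were past 2-fold lower in both, and 9 were past 2-fold in opposite directions. The stricter definition gave counts of 10, 34 and 1 among 1578 genes. Singly, 154 (4.14%) of 3721 genes were past 2-fold higher and 144 (3.87%) lower in the arthritic knockout, and 230 (6.24%) of 3685 higher and 284 (7.71%) lower with anti-Notch3. The stricter definition gave 148 (4.57%) higher and 114 (3.52%) lower of 3236 genes in the knockout, and 84 (5.3%) and 74 (4.67%) of 1585 with anti-Notch3.

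**Figure D5:**
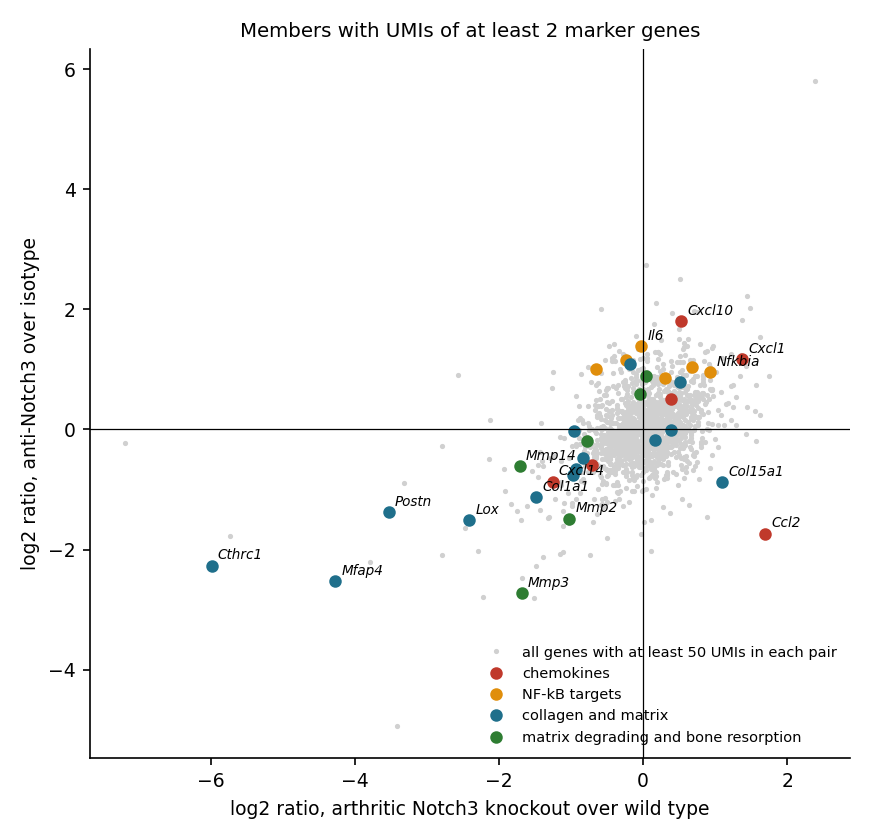
Log2 ratio of knockout to wild type (x axis) and of anti-Notch3 to isotype (y axis) in arthritic members with at least 2 marker genes, 1 point per gene with at least 50 UMIs in each pair, with genes of 4 lists coloured. Cthrc1, Mfap4, Postn and Mmp3 lie low on both axes and Cxcl1 lies high on both.

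The genotype pair alone gave its largest ratios above 1 in Meox1, a homeobox transcription factor, and Cdh13, T-cadherin. Meox1 went from 4.69 to 38.9 CPM and Cdh13 from 7.04 to 48 CPM. With the antibodies Meox1 stood at 2.7 and 4.06 CPM. The largest ratios above 1 of the antibody pair included F3 and Socs1, a feedback inhibitor of cytokine signalling, at 31.5 with isotype and 262 CPM with anti-Notch3. Its largest ratios below 1 were those of Fmod, Kera and Col11a1, tendon and cartilage genes, as set out for the isotype members. Chil1, a chitinase-like protein, was at 9.3, 0, 399, 0, 20.7 and 0 CPM, and 1 cell gave 37.3% of the UMIs on its higher side.

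A single targeting term over all 3 pairs, healthy joints included, left 2 residual degrees of freedom and called 26 of 8498 genes (0.306%), 8 (0.0941%) higher and 18 (0.212%) lower. Among members with at least 2 marker genes, 35 of 6992 (0.501%) were called, 19 (0.272%) higher and 16 (0.229%) lower, and 12 genes were called in both. Cxcl1 and Cxcl2 were the chemokines among them. Cxcl1 was at 2733, 6567, 3436, 8426, 722 and 3792 CPM, higher in the targeted library of each of 3 pairs, with a change of 1.71 ± 0.24 (SE; adjusted p = 0.0344) by edgeR. Cxcl2 was at 14.4, 92.2, 18.8, 80, 27 and 95.3 CPM, with a change of 2.30 ± 0.28 (SE; adjusted p = 0.0204). Mmp3 was lower in each of the 3 pairs, with a change of -2.34 ± 0.34 (SE; adjusted p = 0.0344).

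Ifi202b, an interferon-inducible gene of the Ifi200 cluster, was at 48.8, 0, 70.4, 0, 0 and 0 CPM. It was present in both wild-type libraries and at 0 UMIs in both knockouts and both antibody libraries, the isotype control included. Against a floor of 3 UMIs per library it was at least 23.3-fold lower in the healthy knockout and 30.8-fold lower in the arthritic knockout. The levels thus separated the wild-type libraries from the other 4, not targeted from untargeted. Lining genes Clic5 and Tspan15 and the macrophage-expressed F13a1, with Tppp3 and Ifrd1, were the other higher genes called under both definitions. Clic5 was at 1.39, 48.2, 2.35, 15.2, 2.7 and 24.3 CPM and F13a1 at 0, 48.2, 0, 20.6, 4.5 and 95.3 CPM, below other fibroblasts in each library, where F13a1 was at 99.2, 440.1, 248, 197, 274 and 252 CPM. Without each library's richest cell, F13a1 was at 3.6 CPM with isotype and 2.03 with anti-Notch3, and Clic5 at 1.8 and 2.03 CPM. The rise of both with the antibody thus rests on single cells, while both genotype pairs kept their direction.

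In healthy joints alone, with 1 library each and so no replicate check, 154 of 6112 genes (2.52%) were past 2-fold higher in the knockout and 264 (4.32%) lower. A median-of-ratios scaling shifted the median log2 ratio from -0.10 to 0.03 and the split to 204 higher and 195 lower. Il6, the inflammatory cytokine, was at 129 CPM in wild type and 867 in knockout. Tnfaip6, a hyaluronan-binding protein induced by inflammation, was at 754 CPM in wild type and 3548 in knockout, and Ccl7 was at 251 CPM in wild type and 1134 in knockout. Pde4b, a cAMP phosphodiesterase, was at 6.97 CPM in wild type and 55.9 in knockout. The knockout had the higher level of all 4. C7, a complement component, was at 73.5 CPM in wild type and 2.79 in knockout, and Chl1, a neural adhesion molecule, was at 26 CPM in wild type and 0 in knockout. Col1a1 was at 4885 CPM in wild type and 4225 in knockout.

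Arthritis against healthy, tested over both genotypes in the same fit as the 3-pair term, called 5 of 8498 genes (0.0588%), all higher in arthritis. They were 3110079O15Rik, Acta2, Chad, Chil1 and 1500015O10Rik. Acta2, smooth muscle actin, was at 0.93, 0.698, 166 and 6.1 CPM in the first 4 libraries, and 1 cell gave 60.6% of its arthritic wild-type UMIs. Chil1 was at 9.3 CPM in healthy and 399 CPM in arthritic wild type, and at 0 UMIs in both knockouts. Its rise was thus seen in wild type alone. Without each library's richest cell, those wild-type levels were 2.32 and 230 CPM. With at least 2 marker genes required, edgeR called 0 of 6992 genes, 289 had an unadjusted p under 0.05, and DESeq2 on all members called 11. Healthy and arthritic samples were separate libraries, so library and condition cannot be told apart.

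By fold alone, arthritis was accompanied by more large differences in wild type than in knockout members. In wild type 185 of 5146 genes (3.6%) were past 2-fold higher and 396 (7.7%) lower, and in knockout 70 of 5044 (1.39%) were higher and 84 (1.67%) lower. This difference itself was not tested. Mfap4 stood at 12.6 and 471 CPM in healthy and arthritic wild type and at 18.9 and 22.1 CPM in knockout. Ptn stood at 13 and 774 CPM in wild type and at 25.8 and 13 CPM in knockout. Mmp13 was at 0 UMIs in the healthy wild type and 176 CPM in the arthritic one. The arthritic wild-type library enters both this contrast and the arthritic genotype pair, so the 2 sets of values are not independent. It holds the fewest members, 80.

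Whether Notch3 targeting changed members and other fibroblasts differently was tested by an interaction term over both populations of all 6 libraries. It called 32 of 11706 genes (0.273%), 19 (0.162%) with the higher change in members and 13 (0.111%) with the lower. Of the 32, 1 is a gene of the rule. The stricter definition called 76 of 11983 (0.634%), 27 (0.225%) and 49 (0.409%) in these directions, and 18 were called in the same direction under both definitions. Cxcl2 was among them, at 14.4, 92.2, 18.8, 80, 27 and 95.3 CPM in members and 35.9, 60.1, 69.3, 92.7, 32 and 58 CPM in other fibroblasts, with a difference in change of 1.54 ± 0.26 (SE; adjusted p = 0.00595) that rests on the few cells described above. F3 was at 113, 119, 51.6, 137, 8.1 and 108 CPM in members and 37, 18.3, 24.1, 32.2, 9.65 and 20.7 CPM in the others, with a difference of 1.37 ± 0.25 (SE; adjusted p = 0.0124) that was 0.86 and not called (edgeR adjusted p = 0.105) with at least 2 marker genes. Cxcl9, an interferon-induced chemokine for T cells, was at 3.25, 25.8, 28.1, 22.1, 0.9 and 10.1 CPM in members, where 1 cell gave 58.3% of the arthritic wild-type UMIs, and 7.88, 3.27, 36.1, 4.32, 7.07 and 3.81 CPM in the others, with a difference of 3.55 ± 0.44 (SE; adjusted p = 0.000204).

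Comp, a matrix protein of tendon and sublining, had the lower change in members, at 1075, 356, 521, 364, 1099 and 284 CPM against 2757, 1563, 521, 1631, 889.5 and 979.9 CPM in other fibroblasts, a difference of -1.66 ± 0.22 (SE; adjusted p = 0.000279). For Col1a1 the difference was -0.10 ± 0.13 (SE; adjusted p = 1), for Mfap4 -0.96 ± 0.28 (SE; adjusted p = 0.309), and for Cxcl1 0.52 ± 0.19 (SE; adjusted p = 0.63). The changes in these 3 genes were therefore not shown to differ between members and the other fibroblasts. In the other fibroblasts the log2 change over the arthritic pairs was -1.28 for Col1a1, -1.70 for Mfap4 and 1.46 for Cxcl1.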

How the data were processed

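Raw UMI counts per gene and cell were deposited by the authors as 1 matrix per library. The submitters' processing notes name Cell Ranger 3.0.2 and mm10, and the labels give 7000 cells loaded for each library. The members, the gene lists and the second definition of members were chosen with earlier results of these data known. Member UMIs were summed per library and tested with edgeR 4.0.16 (TMM, filterByExpr, quasi-likelihood, Benjamini-Hochberg over all genes tested), with DESeq2 1.42.0, median-of-ratios scaling, no low-count filter, other marker minimums and left-out pairs as alternatives (R 4.3.3, limma 3.58.1). Cells were handled in Python 3.11.15, with Scrublet in scanpy 1.11.5 at an expected rate of 0.03, exact intervals from scipy 1.17.1 at 95%, and gene positions from GENCODE M21. Within a pair, ratios of CPM used a pseudocount of 0.5 UMIs and genes with at least 50 UMIs, and ratios of members to other fibroblasts 1 CPM. Replicate spread could not be measured, because each group is 1 library of 10 pooled mice: the test measures only how far the pairs differ in their response. On simulated counts over 8834 genes for the targeting term of the arthritic pairs, all 100 genes changed by 3 log2 units and 99 of 100 changed by 1.5 were recovered, and 4.33% of the calls were false. The simulation gave all genes the same dispersion, changed only genes above 100 CPM and made each change equal in both arthritic pairs. It held no differences in cell make-up and no single outlying cells, so these shares are not error rates of the test on the real counts. Genes were named by a rule: the genes of the member rule and Fst, the 20 highest and 10 lowest against other fibroblasts, up to 10 per direction in each tested comparison, 8 per direction in each pair, and listed genes. Gene models overlap and counts of near-identical genes such as the Ifi200 cluster can be shared, so Ifi202b is uncertain. Cell Ranger's settings and its gene annotation were not stated in the sources used here. The lists not described in the report called few genes in the arthritic pairs: complement 1 of 9 higher (Cfd, from few cells), lymphoid-tissue stroma 1 higher and 1 lower of 8, the SPARC family 1 and 1 of 5, interleukin 4 and 13 response 1 lower of 8, dissociation stress 1 and 1 of 14, and none of 10 glucocorticoid-response, 5 leukotriene and prostaglandin and 3 chemokine-receptor genes.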

Additional observations from a re-analysis of the deposited data

Results flagged for a closer look

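The healthy and arthritic genotype pairs moved in opposite directions in the share of members, at 0.587 and 2.33 times the wild-type share. The difference between the 2 ratios was not tested, since each group is 1 library.

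The change with Notch3 targeting differed between members and other fibroblasts for 20 named genes, by the interaction term of edgeR's quasi-likelihood test. Each value is the log2 change in members minus that in other fibroblasts. It was above 0 for Adipoq (11.75), Cxcl3 (9.52), Hbb-bs (5.22), F13a1 (4.96), Cxcl9 (3.55), Col22a1 (3.35), Clic5 (2.32), Ifit1 (2.19), Plac8 (2.03) and Vtn (1.92). It was below 0 for Uts2r (-8.51), Ibsp (-6.27), Wif1 (-6.04), Rgs5 (-3.58), Kera (-2.51), Fibin (-2.02), Tnmd (-1.75), Comp (-1.66), Apoe (-1.27) and Fxyd6 (-1.22). Adipoq, an adipocyte hormone, Cxcl3, Uts2r, Ibsp, Wif1, Rgs5, Kera, Fibin and Fxyd6 were not called with at least 2 marker genes. The 3 erythroid markers, Hbb-bs among them, summed to 698.6 CPM in healthy wild-type other fibroblasts and 3.8 CPM in the healthy knockout. Members had 16.3 and 3.5 CPM there. In the arthritic libraries neither population exceeded 19.7 CPM. How far the Hbb-bs value rests on the healthy wild type was not tested. Lining and macrophage genes such as Clic5 and F13a1 were far lower in members than in other fibroblasts, and 1 cell gave 91.7% of the Clic5 UMIs of the anti-Notch3 members. Without each library's richest cell, F13a1 was at 3.6 CPM with isotype and 2.03 CPM with anti-Notch3.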

How the results depend on the processing

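Each fit has a term for the pair of libraries, and no fit without it was run. The number of genes called for Notch3 targeting in the 2 arthritic pairs (203) was 348 with median-of-ratios scaling, 358 with no low-count filter, 30 with at least 6 marker UMIs, 322 with at least 3, 124 without Scrublet doublets, 96 with DESeq2 and 72 with the 4 arthritic libraries alone. Over all 3 pairs (26) it was 295 with no filter, 83 with DESeq2, 72 without the healthy pair and 13 without the antibody pair. For arthritis (5) it was 82 with no filter, 1 with at least 6 marker UMIs, 2 with at least 3, 11 with DESeq2, 0 with at least 2 marker genes and 2 without the antibody pair. For the interaction (32) it was 92 with no filter, 62 with at least 6 marker UMIs and 76 with at least 2 marker genes. The ratio of shares was 0.494, 2.98 and 1.78 in the healthy, arthritic genotype and antibody pairs with at least 6 marker UMIs, 0.465, 3.88 and 2.79 after thinning, and 0.705, 3.46 and 0.859 as a share of all cells, so the antibody ratio changed sides of 1, and it was 2.95 with at least 2 marker genes. A minimum of 20 UMIs gave 914, 845, 1161, 1352 and 528 genes past 2-fold in the healthy, arthritic genotype and antibody pairs and for arthritis in wild type and in knockout, and the antibody pair gave 158 with at least 2 marker genes. The cause of these differences was not tested. Of 441 values of named genes under an alternative, 342 kept their direction and call, 94 lost the call and 5 reversed, all in the interaction: Cxcl3 (-6.04 with at least 6 marker UMIs and -6.15 with at least 2 marker genes), Ibsp (0.59), Wif1 (5.12) and Rgs5 (1.83), the last 3 with at least 2 marker genes. The members of the arthritic wild-type library, 80 cells, limit the precision of each level there.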
